A study of Mus musculus with 24 samples.

Results

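The Fc receptors of microglia described here are 7 genes: Fcgr1, Fcgr3, Fcgr4, Fcer1g, Fcgr2b, Fcrls and Fcgrt. They were chosen by name, through the RefSeq transcript to which each array probe is assigned, out of 18566 genes with a symbol that were tested. Together they had 8 probes, of which Fcgr2b had 2 and every other gene had 1. Hippocampal RNA of 24 male mice was hybridised to Agilent arrays, 1 mouse to an array. All 24 mice carry the strain label B6.Cg-Tg(APPswe,PSEN1dE9)85Dbo/J, and a separate label says whether the transgenes were present. APP-PS1_UA (n = 4) and APP-PS1_CTR (n = 3) mice were positive for the mutant APP and PSEN transgenes and received urolithin A (UA) or water by daily gavage, and WT_CTR mice (n = 4) were negative for both and received water. APP-PS1_UA-WASHOUT (n = 5), APP-PS1_WASHOUT (n = 3) and WT_WASHOUT mice (n = 5) were treated in the same way and then kept for 1 month without gavage. Gavage ran from 2 to 7 months of age. The sample labels give 8 months of age for the first 3 groups and 9 months for the washout groups, whereas the design text puts collection at 7 months and 1 month later. The protocols state a daily UA dose of 200 mg/kg, and the design text states 20 mg/kg. No mouse without the transgenes received UA. In this line both transgenes are driven by the mouse prion protein promoter, so that they are expressed mainly in neurons, and plaques form with age.

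Fc receptors bind the constant part of antibodies. In the brain they are found mainly on microglia, where activating receptors signal through the immunoreceptor tyrosine-based activation motif of a shared gamma chain to the kinase Syk and drive uptake of antibody-coated material. An inhibitory receptor that recruits phosphatases such as Inpp5d and Ptpn6 opposes them. The neonatal Fc receptor belongs to a different family and returns antibody and albumin to the cell surface from endosomes.

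The 7 genes lie on 3 chromosomes of the mouse genome (GRCm38.p6, RefSeq). Fcgr2b (chr1:170960558-170976071), Fcgr4 (chr1:171018926-171029761), Fcgr3 (chr1:171051169-171065915) and Fcer1g (chr1:171229572-171234349) form a cluster on chromosome 1. Fcrls (chr3:87250736-87263765) and Fcgr1 (chr3:96282909-96293969) are on chromosome 3, and Fcgrt (chr7:45092993-45103822) is on chromosome 7. Probe sequences were not used here, so hybridisation of a probe to a related gene of the cluster was not tested.

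The promoters of 4 members are printed because the results turn on Fcgr2b and Fcrls, and because Fcgr1 and Fcgr4 hold the only interferon motifs found in the set. Each runs 5′ to 3′ on the strand of its gene, from 250 bases before the RefSeq start to 50 bases after it, in GRCm38.p6. Fcgr1 is at chr3:96293920-96294219 on the minus strand, Fcgr4 at chr1:171018676-171018975 on the plus strand, Fcgr2b at chr1:170976022-170976321 on the minus strand and Fcrls at chr3:87263475-87263774 on the minus strand. Capitals mark matches on either strand to the core of the PU.1 motif (GAGGAA), the interferon gamma-activated site (TTCNNNGAA) and a core of the interferon-stimulated response element (GAAA, any 2 bases, GAAA).
Fcgr1: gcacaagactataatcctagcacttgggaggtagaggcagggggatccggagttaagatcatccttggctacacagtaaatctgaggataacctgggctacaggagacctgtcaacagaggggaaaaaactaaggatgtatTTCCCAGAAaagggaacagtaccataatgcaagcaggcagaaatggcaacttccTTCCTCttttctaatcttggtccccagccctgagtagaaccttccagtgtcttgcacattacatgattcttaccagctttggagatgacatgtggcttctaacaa
Fcgr4: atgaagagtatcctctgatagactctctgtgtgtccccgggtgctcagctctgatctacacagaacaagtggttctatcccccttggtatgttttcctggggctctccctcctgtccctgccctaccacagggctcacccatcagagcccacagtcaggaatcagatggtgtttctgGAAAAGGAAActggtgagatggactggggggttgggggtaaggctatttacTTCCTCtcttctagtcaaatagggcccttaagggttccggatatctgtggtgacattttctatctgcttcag
Fcgr2b: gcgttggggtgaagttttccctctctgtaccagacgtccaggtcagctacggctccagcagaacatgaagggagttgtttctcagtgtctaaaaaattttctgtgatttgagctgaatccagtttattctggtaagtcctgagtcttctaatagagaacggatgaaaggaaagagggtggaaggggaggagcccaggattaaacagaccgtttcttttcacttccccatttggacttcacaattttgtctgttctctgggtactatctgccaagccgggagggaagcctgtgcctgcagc
Fcrls: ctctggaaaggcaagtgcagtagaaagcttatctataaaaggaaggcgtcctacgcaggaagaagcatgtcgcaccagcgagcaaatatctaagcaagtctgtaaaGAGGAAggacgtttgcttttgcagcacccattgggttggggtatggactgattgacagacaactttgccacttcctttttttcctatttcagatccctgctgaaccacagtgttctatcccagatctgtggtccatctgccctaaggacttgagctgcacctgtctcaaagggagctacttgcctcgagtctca

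PU.1 is the transcription factor that sets up the microglial lineage. Its core was found 1 time in each of the promoters of Fcgr1, Fcgr3, Fcgr4 and Fcrls, and in 28.3% of all 32817 mouse promoters of the same length. The Fcgr2b, Fcer1g and Fcgrt windows did not hold these letters. The interferon gamma-activated site was found in Fcgr1 and in 8.29% of all promoters, and the interferon-stimulated response element in Fcgr4 and in 3.43% of all promoters. No marked motif overlapped another.

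Values are log2 relative signals: the log2 of the background-subtracted signal minus the log2 of that array's 75th percentile, so that 0 is the signal at that percentile. They serve to compare a gene between arrays, not to rank genes, since each probe has its own brightness. Between 63.7% and 76.9% of the probes of an array were well above background, and the 75th percentile of the signal lay between 906 and 1585. The arrays were on 3 slides. WT_CTR and APP-PS1_CTR filled different rows of slide 1, APP-PS1_UA spanned slides 1 and 2, WT_WASHOUT was on slide 2, and all transgenic washout arrays were on slide 3. The washout comparison of transgenic and WT mice therefore cannot be told apart from a comparison of slides 3 and 2. Neuronal markers were bright in all groups, and their mean log2 relative signal lay between 4.16 and 4.54 on every array. All 20 microglial markers of the list used were measured. In bulk RNA, more cells of a type and more RNA per cell cannot be told apart.

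Fcgr2b, the inhibitory IgG receptor, separated the genotypes on every array. Its log2 relative signals were -2.40, -2.56, -1.69 and -2.55 in APP-PS1_UA and -2.28, -1.88 and -1.75 in APP-PS1_CTR, against -3.36, -3.16, -3.14 and -3.44 in WT_CTR. After washout they were -2.49, -2.15, -1.76, -1.91 and -1.89 in APP-PS1_UA-WASHOUT and -2.44, -1.81 and -2.41 in APP-PS1_WASHOUT, against -3.67, -3.28, -2.83, -3.30 and -3.03 in WT_WASHOUT. The lowest of the 15 transgenic arrays, at -2.56, was above the highest of the 9 WT arrays, at -2.83. The second, dimmer Fcgr2b probe, assigned to another transcript of the gene, gave -4.12 to -2.98 in transgenic arrays and -5.52 to -4.37 in WT arrays, again without overlap.

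Fcrls, a scavenger receptor-like member of the Fc receptor-like family used in mice as a microglial identity gene, was the other member with this pattern. It stood at -0.25, -0.28, -0.00 and -0.26 in APP-PS1_UA and at -0.02, -0.06 and 0.08 in APP-PS1_CTR, against -0.63, -0.63, -1.05 and -0.52 in WT_CTR. After washout it stood at 0.41, 0.55, 0.72, 0.76 and 0.64 in APP-PS1_UA-WASHOUT and at 0.69, 0.49 and 0.31 in APP-PS1_WASHOUT, against -0.33, -0.66, -0.79, -0.70 and -0.86 in WT_WASHOUT. All 15 transgenic arrays were above all 9 WT arrays, and the 8 transgenic washout arrays were above the 7 other transgenic arrays. Those 8 arrays were all on slide 3 and the 7 others on slides 1 and 2, so stage and slide cannot be told apart here. The share of all features with that second split was not counted. Of all 35259 features tested, 0.204% were higher on every transgenic array than on any WT array. The number of transgenic arrays above the highest WT array was 13 for Fcgr1, 10 for Fcgr3, 7 for Fcer1g, 4 for Fcgr4 and 1 for Fcgrt.

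**Figure D1:**
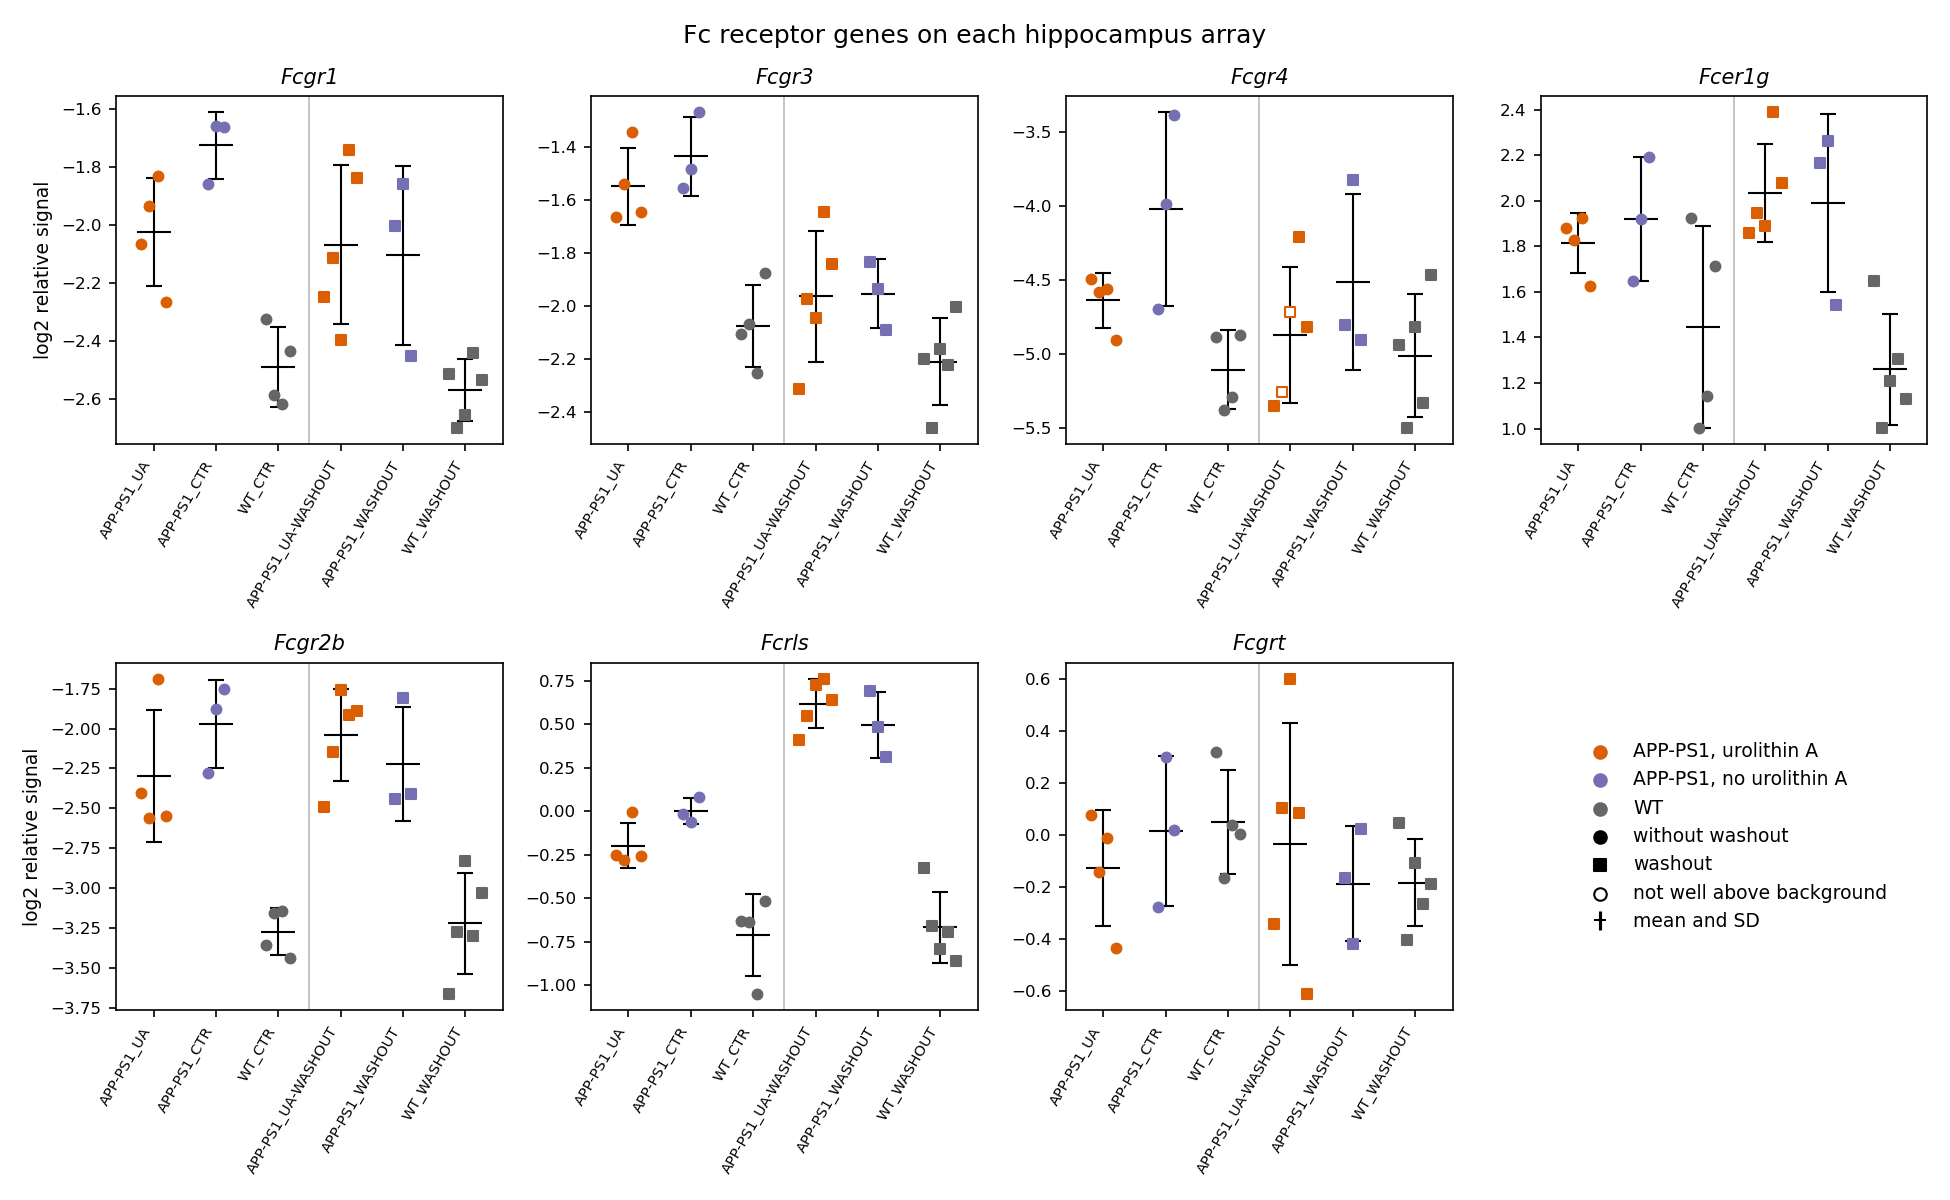
log2 relative signal (y axis, each panel with its own range) of the 7 genes on each of the 24 arrays, by group on the x axis; circles are arrays without washout, squares washout arrays, open symbols values not well above background, and black bars the group mean and SD. Fcgr2b and Fcrls show 15 transgenic arrays above all 9 WT arrays, and Fcgrt shows all 6 groups overlapping.

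**Figure D2:**
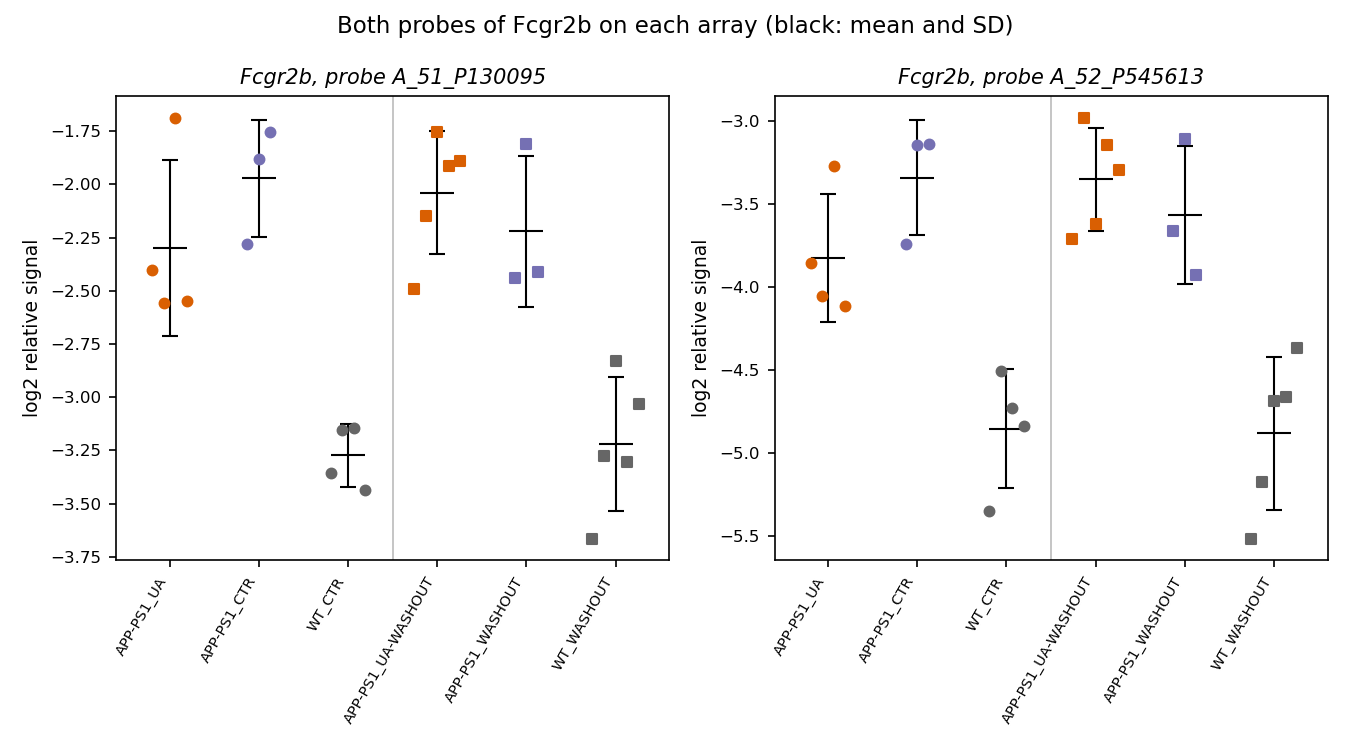
log2 relative signal of both Fcgr2b probes (left, the brighter probe used for the gene; right, the dimmer probe), by group on the x axis, with points for arrays and black bars for the mean and SD. Both probes place every transgenic array above every WT array.

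At the end of treatment, 3 of the 7 genes passed the test in APP-PS1_CTR against WT_CTR mice, all higher, when 0.170% of all features passed in either direction and 0.167% passed as higher. The 60 features behind the first share became 21 to 33 without single arrays, and 8 to 173 over all alternatives run. A feature passed with an adjusted p under 0.05 in limma, with Benjamini-Hochberg adjustment over all 35259 features. Fcgr2b averaged -1.97 ± 0.28 in APP-PS1_CTR and -3.27 ± 0.15 in WT_CTR (SD, n = 3 and 4), a log2 change of 1.30 (SE 0.23) or 2.47-fold, with an adjusted p of 0.0195 in limma. Its second probe changed by 1.51 (adjusted p = 0.0326 in limma over all probes). Fcrls averaged 0.00 ± 0.07 in APP-PS1_CTR and -0.71 ± 0.23 in WT_CTR, a change of 0.71 (SE 0.14, adjusted p = 0.0361 in limma).

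Among the activating receptors, Fcgr1, the high-affinity IgG receptor, was at -1.86, -1.66 and -1.66 in APP-PS1_CTR, against -2.32, -2.59, -2.61 and -2.43 in WT_CTR. The groups did not overlap, and the change of 0.76 (SE 0.15, 1.70-fold) had an adjusted p of 0.0471 in limma. Fcgr3, a low-affinity activating receptor, was at -1.55, -1.48 and -1.27 in APP-PS1_CTR, against -2.10, -2.06, -2.25 and -1.87 in WT_CTR. These groups did not overlap either, but the difference of 0.64 (SE 0.14) missed the threshold with an adjusted p of 0.0704 in limma. Fcgr4, an activating receptor of intermediate affinity in the mouse, was at -4.69, -3.98 and -3.39 in APP-PS1_CTR, against -4.89, -5.38, -5.29 and -4.87 in WT_CTR. Its difference of 1.08 was spread over a wide 95% interval, 0.42 to 1.75 (adjusted p = 0.385 in limma). In all, 5 of the 7 genes had every APP-PS1_CTR array above every WT_CTR array, as did 4.28% of all features.

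Fcer1g, the gamma chain through which these receptors signal, was at 1.65, 1.92 and 2.19 in APP-PS1_CTR, against 1.92, 1.003, 1.14 and 1.71 in WT_CTR. The groups overlapped through WT_CTR replicates 1 and 4, and the difference was 0.47 (adjusted p = 0.768 in limma). Fcgrt, the heavy chain of the neonatal Fc receptor, was at -0.28, 0.30 and 0.02 in APP-PS1_CTR, against 0.32, -0.16, 0.04 and 0.01 in WT_CTR. Its difference was -0.04 with a 95% interval of -0.49 to 0.42 (adjusted p = 0.982 in limma).

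These 3 calls depended on single arrays, although the estimates moved little. Without single arrays the change ranged from 0.72 to 0.83 for Fcgr1, 0.60 to 0.78 for Fcrls and 1.19 to 1.46 for Fcgr2b. The Fcgr1 call was lost when any 1 of the 7 arrays was left out (adjusted p 0.0703 to 0.277 in limma), and the Fcrls call when any but WT_CTR replicate 4 was (0.0703 to 0.194, against 0.0409 without that array). The Fcgr2b call was lost without APP-PS1_CTR replicate 2 (0.137) or 3 (0.161) and without WT_CTR replicate 1 (0.0611) or 4 (0.0655). WT_CTR and APP-PS1_CTR filled different array rows, and with the row as a block none of the 7 passed (Fcgr2b 0.96 and Fcrls 0.79, of which Fcrls had the lowest adjusted p of the 7, 0.539 in limma).

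**Figure D3:**
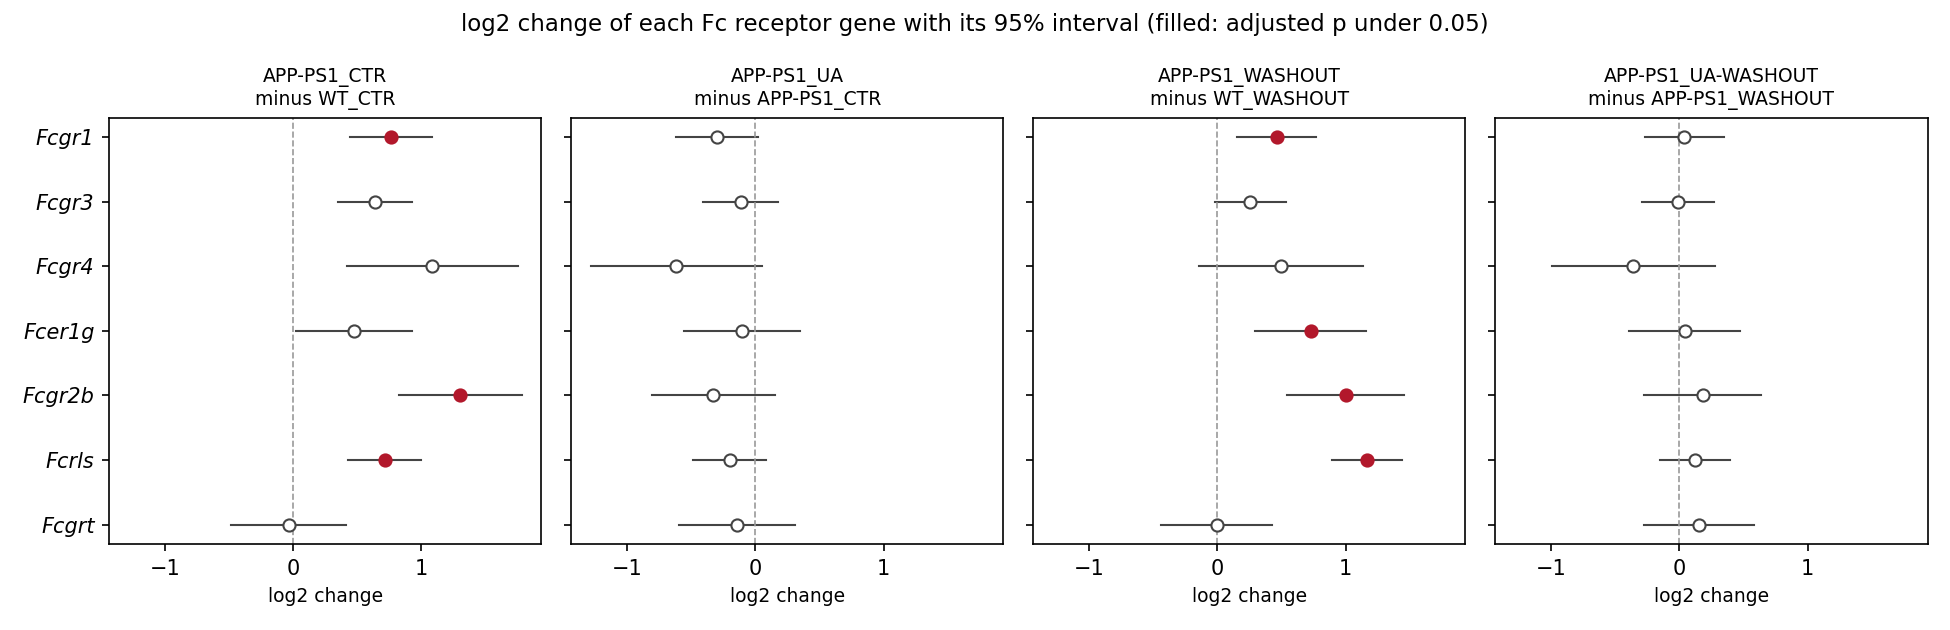
log2 change (x axis) of the 7 genes (y axis) in 4 comparisons, with the 95% interval of the limma fit as a line; filled points have an adjusted p under 0.05. APP-PS1_CTR minus WT_CTR has 3 filled points, APP-PS1_WASHOUT minus WT_WASHOUT has 4, and the comparisons of UA with no UA have 0.

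Of the 23 genes of Fc receptor signalling that were measured, 1 rose in APP-PS1_CTR mice and none fell; their median log2 change was 0.40, against -0.00 over all features. That 1 call was lost whichever array but WT_CTR replicate 2 was left out. Of the 12 genes of inhibitory signalling, 1 rose and none fell, with a median of 0.19. It was Ptpn6, the tyrosine phosphatase SHP-1, at -1.13 in APP-PS1_CTR and -2.01 in WT_CTR (change 0.88, adjusted p = 0.0387 in limma), and this call was lost whichever of the 7 arrays was left out. None of the 4 measured partners of the gamma chain passed, nor any of 9 other Fc receptors, the ligand gene Jchain or B2m and Alb, the light chain and the cargo of the neonatal Fc receptor. B2m differed by 0.51 (adjusted p = 0.629 in limma).

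Microglial markers moved beside the receptors. Of 20 markers, 4 rose and none fell, with a median change of 0.49: Tyrobp, the adaptor of Trem2, rose by 1.11 (adjusted p = 0.00185 in limma), and Trem2 by 1.09, Cd68 by 0.93 and Ptprc by 0.89. Without single arrays 1 to 4 passed, 1 without APP-PS1_CTR replicate 3 and 2 without APP-PS1_CTR replicate 2 or WT_CTR replicate 2 or 3, and with array row as a block 0 did. Aif1 differed by 0.58 (adjusted p = 0.405 in limma) and the homeostatic receptor P2ry12 by 0.16 (adjusted p = 0.843 in limma). Of 15 plaque-associated genes, 7 rose and none fell, led by Cst7, which had 0.60 in APP-PS1_CTR and -5.32 in WT_CTR. The summed relative signal of the microglial list ranged from 155 to 192 in APP-PS1_CTR and from 106 to 142 in WT_CTR. Its mean log2 relative signal, which gives each gene the same weight, averaged 1.94 in APP-PS1_CTR and 1.44 in WT_CTR. What part of the receptors' change goes with that of the other microglial genes was not tested.

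None of the lists for perivascular macrophages and monocytes, neutrophils, B and plasma cells, mast cells, natural killer cells, endothelium, choroid plexus, meninges or neurons held a gene that passed in this comparison. The choroid plexus list had a median difference of 1.82, and its summed relative signal ranged from 129 to 179 in APP-PS1_CTR and from 5.59 to 213 in WT_CTR. Its part in the receptors' values was not tested. Ly6g of neutrophils, Cd79a and Ms4a1 of B cells, Cpa3 of mast cells and Ncr1 of natural killer cells had no probe that passed the filter on dim probes.

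**Figure D4:**
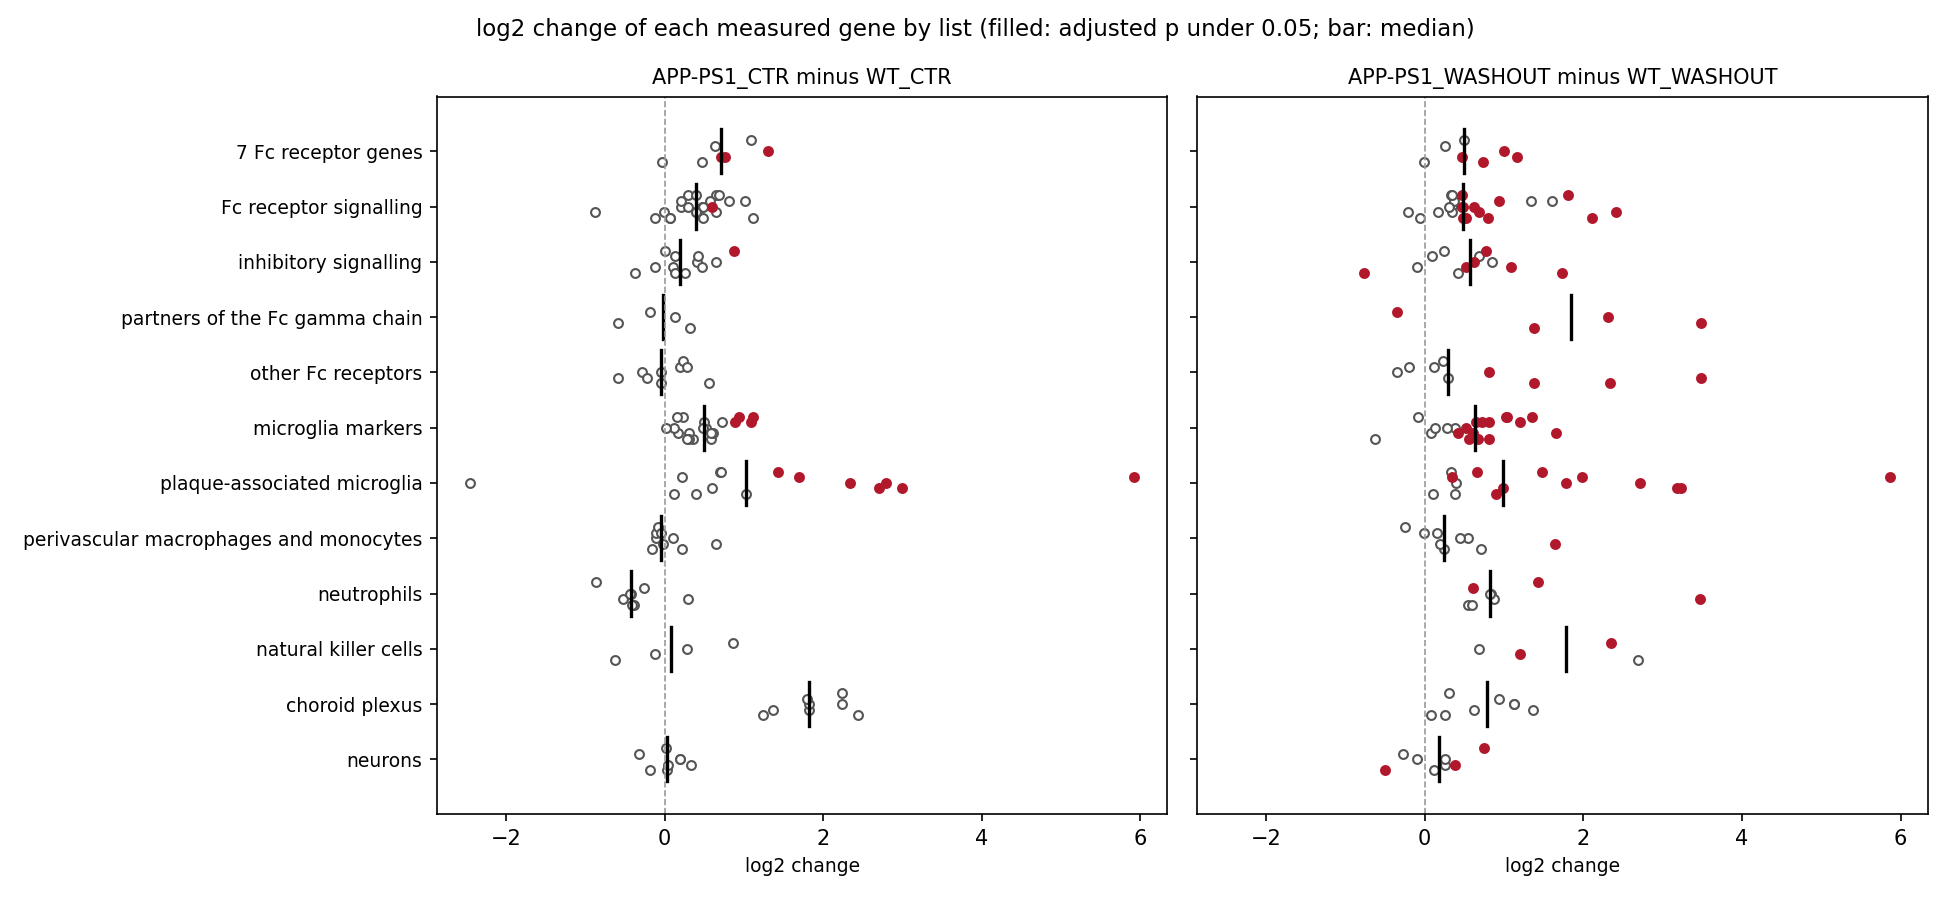
log2 change (x axis) of every measured gene of 12 lists (y axis) in APP-PS1_CTR minus WT_CTR (left) and APP-PS1_WASHOUT minus WT_WASHOUT (right); filled points have an adjusted p under 0.05 and black bars are list medians. The medians of Fc receptor signalling are 0.40 on the left and 0.48 on the right.

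Urolithin A was compared with water in transgenic mice at the end of treatment. None of the 7 genes passed the test in APP-PS1_UA against APP-PS1_CTR mice. Of all features 0% passed in limma, with 2623 at an unadjusted p under 0.05, and 0 to 11 features passed over all alternatives run. All 7 estimates were below 0, from -0.62 for Fcgr4 to -0.10 for Fcer1g, with a median of -0.20, against -0.01 over all features. Fcgr2b averaged -2.30 ± 0.41 in APP-PS1_UA and -1.97 ± 0.28 in APP-PS1_CTR (SD, n = 4 and 3), a difference of -0.33 with a 95% interval of -0.81 to 0.15 (adjusted p = 0.740 in limma).

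Fcgr1 was at -2.07, -1.94, -1.83 and -2.27 in APP-PS1_UA, against -1.86, -1.66 and -1.66 in APP-PS1_CTR, a difference of -0.30 with an interval of -0.62 to 0.02 (adjusted p = 0.681 in limma). None of the 7 genes had all 4 UA arrays below the lowest control array, as 4.61% of all features did. Fcgr4 was at -4.49, -4.58, -4.56 and -4.91 in APP-PS1_UA, against -4.69, -3.98 and -3.39 in APP-PS1_CTR, with control replicates 2 and 3 above all 4 UA arrays. Its difference of -0.62 was -0.95 without APP-PS1_CTR replicate 1 and -0.30 without APP-PS1_CTR replicate 3, and passed in neither case.

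Of the 23 signalling genes, 20 microglial markers and 15 plaque-associated genes, 0 passed, with medians of -0.15, -0.11 and -0.24. The genes with the lowest unadjusted p in these lists were Dock2 (-0.32), Itgam (-0.35) and Gpnmb (-0.73), none of which passed (adjusted p = 0.663, 0.670 and 0.644 in limma). The choroid plexus list had a median difference of -2.44 in this comparison, with no gene called. Only APP-PS1_UA replicate 1 shared a slide with the control arrays, and within that slide the differences were -0.43 for Fcgr2b, -0.34 for Fcgr1 and 0.06 for Fcgrt.

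After washout, 4 of the 7 genes rose in APP-PS1_WASHOUT against WT_WASHOUT mice. Many features did so in this comparison, which set slide 3 against slide 2: 27.5% passed in either direction, 19.8% as higher and 7.71% as lower. Fcrls averaged 0.50 ± 0.19 in APP-PS1_WASHOUT and -0.67 ± 0.21 in WT_WASHOUT (SD, n = 3 and 5), a change of 1.16 (SE 0.13, 2.24-fold, adjusted p = 1.53e-06 in limma). Fcgr2b averaged -2.22 ± 0.36 in APP-PS1_WASHOUT and -3.22 ± 0.32 in WT_WASHOUT, a change of 1.0004 (SE 0.22, adjusted p = 0.00176 in limma), and its second probe changed by 1.31 (adjusted p = 0.00107 in limma over all probes).

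Fcer1g was at 2.16, 2.26 and 1.54 in APP-PS1_WASHOUT, against 1.65, 1.003, 1.21, 1.30 and 1.13 in WT_WASHOUT. APP-PS1_WASHOUT replicate 3 lay within the WT range, and the change was 0.73 (SE 0.21, adjusted p = 0.0120 in limma). Fcgr1 was at -2.005, -1.86 and -2.45 in APP-PS1_WASHOUT, against -2.51, -2.70, -2.66, -2.44 and -2.53 in WT_WASHOUT. The same replicate again fell among the WT arrays, and the change was 0.46 (SE 0.15, adjusted p = 0.0234 in limma). Only Fcgr2b and Fcrls had groups that did not overlap, as did 21.2% of all features in this direction.

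Fcgr3 was at -1.83, -1.93 and -2.09 in APP-PS1_WASHOUT, against -2.20, -2.46, -2.16, -2.22 and -2.002 in WT_WASHOUT, a difference of 0.26 (adjusted p = 0.165 in limma). Fcgr4 was at -4.81, -3.83 and -4.91 in APP-PS1_WASHOUT, against -4.94, -5.50, -4.82, -5.33 and -4.46 in WT_WASHOUT, a difference of 0.50 (adjusted p = 0.247 in limma). These 2 overlapped the WT arrays and changed sign under another scaling, to -0.04 for Fcgr4 with quantile normalization and to -0.01 for Fcgr3 in the authors' value table, in its own standardized units. Fcgrt was at -0.16, -0.42 and 0.02 in APP-PS1_WASHOUT, against 0.05, -0.40, -0.11, -0.26 and -0.19 in WT_WASHOUT, and the groups overlapped throughout (difference -0.00, adjusted p = 0.993 in limma).

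The Fcrls and Fcgr2b calls held whichever array was left out, with adjusted p of at most 3.60e-05 and 0.0237 in limma. The Fcgr1 call was lost without APP-PS1_WASHOUT replicate 1 (0.0938) or 2 (0.157), and without WT_WASHOUT replicate 2 (0.0513). It was also lost with median centring (change 0.24, adjusted p = 0.207), normexp background (0.22, 0.263), quantile normalization (0.33, 0.112), the authors' value table (0.446), array row as a block (0.0688) and only the groups compared (0.0561). The Fcer1g call was lost without APP-PS1_WASHOUT replicate 1 (0.0624) or 2 (0.0837) and with array row as a block (0.0741).

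In the same comparison 12 of the 23 signalling genes rose and none fell, with a median change of 0.48, against 0.07 over all features. They included Ncf4 (0.94), a subunit of the phagocyte oxidase, the kinase Btk (0.80) and the exchange factor Vav1 (0.68). The adaptor Card9 and the kinase Fgr, also among the 12, were not well above background on any WT_WASHOUT array, so that their differences have no exact size. Without single arrays 9 to 15 of the 23 passed. Of the 12 inhibitory genes 5 rose and 1 fell. Siglece (1.73) and Cd300a (1.08), both receptors with inhibitory motifs, Ptpn6 (0.77), Cd33 (0.62) and the phosphatase Inpp5d (0.52) rose, while the adaptor Dok3 fell by 0.76. At the end of treatment, on slide 1, Siglece averaged 0.05 in APP-PS1_CTR and -0.08 in WT_CTR, and Cd300a -2.34 and -2.45. Further apart there were Ptpn6 (-1.13 and -2.01), Cd33 (-3.08 and -3.49), Inpp5d (0.20 and -0.27) and Dok3 (-1.31 and -0.94). In the washout comparison slide and genotype cannot be told apart for any of them. Of the 4 measured partners of the gamma chain, the lectin Clec4n (1.37), the platelet receptor Gp6 and Fcer1a passed as higher, and Oscar fell by 0.35. Of 9 other Fc receptors, Fcrl5 (1.37), the polymeric immunoglobulin receptor Pigr (0.80), Fcer1a and Fcamr passed as higher. At the end of treatment Fcrl5 had averaged 1.99 in APP-PS1_CTR and 2.04 in WT_CTR, and Pigr 6.19 and 6.24. Fcer1a and Fcamr were well above background on 3 and 2 of the 3 APP-PS1_WASHOUT arrays and on 0 of the 5 WT_WASHOUT arrays, and Gp6 on 3 and 2 arrays, so no size is given for these 3. With only probes well above background on all arrays, 2 of the partners and 2 of the other receptors passed. Fcamr and Card9 were each well above background on 2 APP-PS1_WASHOUT arrays, 1 APP-PS1_UA-WASHOUT array and no other, all on slide 3. They met the filter of at least 3 arrays only through those transgenic arrays. Fcer1a and Fgr met it only with arrays of slide 3. The calls of these genes, counted above, are therefore no support for a rise of their lists. B2m rose by 0.48 (adjusted p = 0.0471 in limma). Alb passed as lower, but was well above background on 0 of 3 APP-PS1_WASHOUT and 4 of 5 WT_WASHOUT arrays. Without single arrays 0 to 2 of this pair passed.

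Among the microglial markers 14 of 20 rose and none fell, with a median of 0.63, including Itgam (1.35), Trem2 (1.20), Tyrobp (1.03) and Aif1 (0.81), whereas P2ry12 differed by 0.07 (adjusted p = 0.701 in limma). At the end of treatment, on slide 1, Itgam had averaged 5.28 in APP-PS1_CTR and 5.05 in WT_CTR. In the washout comparison 8 to 15 of the 20 passed without single arrays, with 8 without APP-PS1_WASHOUT replicate 2 and 8 with median centring. Of 15 plaque-associated genes 11 rose and none fell. Genes of other cell types also passed, in a comparison in which 19.8% of all features passed as higher and 7.71% as lower. Of the neutrophil markers 3 of 8 rose (Elane, Mpo and Ngp), and of the natural killer markers 2 of 4 (Prf1 and Gzma). In the other lists 1 of 9 rose for perivascular macrophages and monocytes (Ccr2), 1 of 4 for B cells (Pax5) and 1 of 5 for mast cells (Tpsb2). These single genes lie around the share of all features that passed as higher. In the endothelial list 2 markers fell (Tek and Flt1). Of 8 neuronal markers 2 rose and 1 fell. Some of these calls rested on single arrays: 1 neutrophil marker passed without APP-PS1_WASHOUT replicate 1 or 2 or WT_WASHOUT replicate 1 or 4, 1 natural killer marker passed without APP-PS1_WASHOUT replicate 2, and 1 endothelial marker passed whichever array but WT_WASHOUT replicate 1 was left out. Ccr2, well above background on 0 WT_WASHOUT arrays, did not pass without APP-PS1_WASHOUT replicate 1 or 2. It met the filter on dim probes only with arrays of APP-PS1_WASHOUT. The summed relative signal of the microglial list ranged from 252 to 304 in APP-PS1_WASHOUT and from 116 to 137 in WT_WASHOUT. Such a sum is weighted towards bright probes, here Siglech and Itgam, which averaged 6.82 and 6.24 in APP-PS1_WASHOUT and 5.15 and 4.88 in WT_WASHOUT. The mean log2 relative signal of the microglial list averaged 2.02 in APP-PS1_WASHOUT and 1.41 in WT_WASHOUT. The summed relative signal of the neutrophil list ranged from 4.35 to 7.95 in APP-PS1_WASHOUT and from 1.04 to 3.88 in WT_WASHOUT. That of the natural killer list ranged from 9.18 to 14.6 in APP-PS1_WASHOUT and from 4.97 to 7.97 in WT_WASHOUT. These sums too are weighted towards bright probes. In the natural killer list this is Klrb1c, not among the genes that passed, which averaged 3.43 in APP-PS1_WASHOUT and 2.75 in WT_WASHOUT. In the neutrophil list Elane averaged 1.20 and -2.27, and S100a9 1.15 and 0.33. The part of these lists in the receptors' changes was not tested.

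UA given before the washout did not change any of the 7 genes past the threshold. In APP-PS1_UA-WASHOUT against APP-PS1_WASHOUT mice 0.0652% of all features passed in limma, and the estimates for the 7 genes ran from -0.36 for Fcgr4 to 0.18 for Fcgr2b. That share is 23 features, and 14 to 86 passed without single arrays (86 without APP-PS1_WASHOUT replicate 2), 2862 with no filter on dim probes and 0 with only the groups compared. Fcgr2b averaged -2.04 ± 0.29 in APP-PS1_UA-WASHOUT and -2.22 ± 0.36 in APP-PS1_WASHOUT (SD, n = 5 and 3), with a 95% interval for the difference of -0.28 to 0.64 (adjusted p = 0.898 in limma). Fcrls averaged 0.62 ± 0.14 in APP-PS1_UA-WASHOUT and 0.50 ± 0.19 in APP-PS1_WASHOUT, with an interval of -0.15 to 0.39 (adjusted p = 0.879 in limma).

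Fcgr1 was at -2.25, -2.11, -2.40, -1.74 and -1.84 in APP-PS1_UA-WASHOUT, and Fcer1g at 1.86, 1.94, 1.89, 2.39 and 2.08. Each differed from APP-PS1_WASHOUT by 0.04, with 95% intervals of -0.27 to 0.35 and -0.39 to 0.48 (adjusted p = 0.979 and 0.984 in limma). Fcgr4 was at -5.35, -5.26, -4.72, -4.21 and -4.82 in APP-PS1_UA-WASHOUT, where its probe was well above background on 3 of 5 arrays. Of the 20 microglial markers, 23 signalling genes and 12 inhibitory genes, 0 passed. APP-PS1_UA-WASHOUT replicate 1 was the only treated array in the row of the untreated ones, and against it the differences were -0.27 for Fcgr2b and -0.08 for Fcrls.

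UA-treated transgenic mice were also set against WT mice, with the same WT arrays as above. At the end of treatment 0 of the 7 genes passed in APP-PS1_UA against WT_CTR, when 0.0624% of all features passed (22 features, and 5 to 31 over all alternatives run). Fcgr2b differed by 0.97 (SE 0.21, adjusted p = 0.141 in limma), Fcgr3 by 0.53 (0.249), Fcrls by 0.51 (0.265) and Fcgr1 by 0.46 (0.671), with all 4 treated arrays above all 4 WT arrays in each, as in 1.61% of all features. Tyrobp and Trem2 passed, at 0.88 and 1.01 (adjusted p = 0.0119 and 0.0105 in limma). After washout 4 of the 7 genes rose in APP-PS1_UA-WASHOUT against WT_WASHOUT, again between slides 3 and 2, when 36.3% of all features passed and 23.0% passed as higher. They were Fcrls by 1.29 (adjusted p = 2.69e-08 in limma), Fcgr2b by 1.18 (5.06e-05), Fcer1g by 0.77 (0.00192) and Fcgr1 by 0.50 (0.00408), each with all 5 treated arrays above all WT arrays, as in 17.2% of all features. Fcgr3 passed as well without APP-PS1_UA-WASHOUT replicate 1 (0.33, adjusted p = 0.0250 in limma, against 0.25 and 0.102 with it). That replicate, the only treated array in the row of the untreated transgenic arrays, differed from WT_WASHOUT by 1.08 for Fcrls and by 0.73 for Fcgr2b; with 1 array these are values without a replicate check.

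Between the WT groups, WT_WASHOUT against WT_CTR, 0 of the 7 genes passed when 0.0170% of all features did (6 features, and 0 to 87 over all alternatives run), and the estimates ran from -0.23 for Fcgrt to 0.09 for Fcgr4. The genotype difference after washout was tested against that at the end of treatment, a test that 14.3% of all features passed and 0 of the 7 genes. The Fcrls difference was 0.45 larger after washout (SE 0.19, adjusted p = 0.122 in limma), and passed without WT_CTR replicate 3 (0.57, 0.0347) or WT_WASHOUT replicate 1 (0.54, 0.0404). For Fcgr3 this estimate was -0.38 (adjusted p = 0.206 in limma), and -0.65 with arrays centred on their median (adjusted p = 0.0290). The test of the UA difference after washout against that at the end of treatment was passed by 0.00851% of all features and by 0 of the 7 genes, with estimates from 0.10 for Fcgr3 to 0.51 for Fcgr2b.

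Ordered by group mean, Fcgr2b was highest in APP-PS1_CTR (-1.97), then APP-PS1_UA-WASHOUT (-2.04), APP-PS1_WASHOUT (-2.22) and APP-PS1_UA (-2.30), all of which overlapped their neighbours, and lowest in WT_WASHOUT (-3.22) and WT_CTR (-3.27), which overlapped each other and none of the 4. Fcrls fell into 3 levels without overlap: the transgenic washout groups (0.62 and 0.50), the other transgenic groups (0.00 and -0.20) and the WT groups (-0.67 and -0.71). Fcgr3 had APP-PS1_CTR (-1.43) and APP-PS1_UA (-1.55) above APP-PS1_WASHOUT (-1.95) without overlap. APP-PS1_UA-WASHOUT (-1.96) reached the APP-PS1_UA range through replicate 4, at -1.64, and overlapped the WT groups (-2.07 and -2.21) as well. The transgenic washout groups were on slide 3 and the other transgenic groups on slides 1 and 2. These splits of Fcrls and Fcgr3 between transgenic groups therefore cannot be told apart from a difference between slides. How many of all features split in this way was not counted. For Fcgr1, Fcer1g, Fcgr4 and Fcgrt every group overlapped its neighbour in the order.

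The members' profiles over the 24 arrays were compared with those of all genes with a symbol by Pearson's correlation, given as a description, since arrays share groups and slides. Fcer1g was most like C1qc (r = 0.974), Lag3 (0.934) and C1qa (0.933), 2 of which are complement genes, and kept r of 0.943, 0.901 and 0.874 over deviations from the group means. Fcgr2b was most like Gpr65 (0.953), Bcl2a1d (0.946) and Mpeg1 (0.943), and Fcgr1 most like Slc11a1 (0.933), Itgb2 (0.930) and Gfap (0.924), with r over deviations of 0.718 to 0.862 for these 6. Fcgr3 was most like Cd53 (0.907), Plek (0.861) and Cd14 (0.851), with lower r over deviations of 0.680, 0.542 and 0.642. Fcgr4 was most like the class I histocompatibility genes H2-K1 (0.822), B2m (0.811) and H2-D1 (0.810), with 0.774, 0.805 and 0.797 over deviations. Fcrls was most like Pycard (0.929), Cd48 (0.924) and Hcst (0.922), but over deviations from group means these fell to 0.208, 0.15 and 0.413. Among the genes most like Fcgrt were Cyp1b1 (0.822) and Mgp (0.815), and over the same arrays its r with Fcgr1 was -0.00.

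Fcgr2b was also set against the mean of the activating receptors Fcgr1, Fcgr3 and Fcgr4 on the same array, as a log2 difference whose level has no meaning between probes but whose shift between groups does. It averaged 0.42 ± 0.07 in APP-PS1_CTR and -0.05 ± 0.31 in WT_CTR, a shift of 0.47, and 0.64 ± 0.17 in APP-PS1_WASHOUT and 0.04 ± 0.32 in WT_WASHOUT, a shift of 0.59 (SD, n = 3, 4, 3 and 5). With UA it differed from the untreated transgenic mice by 0.02 at the end of treatment and by 0.29 after washout. Without the dim Fcgr4, the genotype shifts were 0.60 and 0.64, and the UA differences were -0.12 and 0.17. The groups of the washout comparison then overlapped, from -0.52 to 0.09 in APP-PS1_WASHOUT and from -1.31 to -0.42 in WT_WASHOUT. These shifts were not tested.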

How the data were processed

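Total RNA of the hippocampus was labelled with Cy3 and hybridised to 1-colour Agilent arrays, 1 per mouse. The deposited scanner files give spot intensity, which, per the file headers, Feature Extraction 12.0.3.1 had background-subtracted within each array, and flags for spots above background. The authors' deposited value table holds a score per probe, which equals the standardized log signal of each array within 0.005. No source used here gives the authors' normalization between arrays.

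The log2 of the processed signal minus the log2 of the array's 75th percentile was analysed. Control spots and outlier spots were left out, and probes well above background on at least 3 arrays were kept (43988 of 56605, of which 15 were lost to outlier flags). RefSeq accessions named the probes, 23611 of all probes had no symbol, and the probe of highest mean signal stood for a gene. A limma 3.58.1 model (R 4.3.3) of 6 group means on 24 arrays gave changes, and p-values were adjusted over 35259 features (18566 genes with a symbol and 16693 probes without). The fit was tested on simulated data. Tables and figures used Python 3.11.15, pandas 2.3.3, numpy 2.4.6 and matplotlib 3.10.9. With 1 array per mouse, p-values rest on the pooled spread between mice and arrays within groups. They do not cover a difference between slides, which in the washout comparisons with WT mice goes with genotype. The number of arrays limits the precision. No spot was saturated. Alternatives covered background, scaling, filters, probe choice, slide, array row, replicate number and each array left out. The normexp alternative used median spot and background signals, as the files hold no mean signal. The fits with slide and array row together, and with slide 3 row 1 only, were chosen after seeing the data.

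The 7 genes and all gene lists were chosen with earlier results of these data known. Named were all 7 genes, from each list at most 6 genes that passed with the lowest adjusted p (or, where none passed, up to 2 with the lowest p), the 3 genes most like each member, and Tyrobp, Trem2, Aif1 and P2ry12. Promoter sequences are RefSeq's, in GRCm38.p6, and all 7 genes matched. Some genes that this rule selects are not reported here.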

Additional observations from a re-analysis of the deposited data

Results flagged for a closer look

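Of 32 sets of 4 or 5 arrays (each probe in each group of that size), 1 held an array that stood apart by Dixon's criterion, which chance meets in about 1 of 20. Fcrls in APP-PS1_UA replicate 3 was at -0.00266, while the other 3 arrays of the group lay between -0.278 and -0.250. The gap to the nearest array was 0.899 of the group's range.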

How the results depend on the processing

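Over all alternatives, 1075 of the members' changes kept their direction and their side of the threshold, 54 lost the threshold, 8 passed it and 67 changed sign. The 3 members that passed in APP-PS1_CTR against WT_CTR became 1 with normexp background, with no filter on dim probes, with slide as a fixed block or with the replicate block. They became 0 within 1 slide, with array row as a block or with only the groups compared, and without single arrays 0 to 1 passed. They became 4, by the addition of Fcgr3, with array weights (adjusted p = 0.0195 in limma). The same held with only probes well above background on all arrays (0.0464). The 4 after washout became 2 with array row as a block, and 2 to 4 without single arrays; the 4 in APP-PS1_UA-WASHOUT against WT_WASHOUT became 1 with slide 3 row 1 only (1 treated array, assumed to vary like the other groups), and 4 to 5 without single arrays. For the change of the genotype difference, 0 became 1 with median centring, the authors' value table or array weights, and 0 to 1 without single arrays. Replicate numbers were not treated as pairing, since same-numbered arrays correlated between -0.24 and 0.32; with the replicate block 34 features passed at the end of treatment, against 60 without it. Scaling set the washout split: 6984 features higher and 2718 lower became 4976 and 7874 with median centring (median of all features 0.07 and -0.15), 4451 and 5252 with quantile normalization, and 4666 and 6658 in the authors' value table. With UA before washout, 8097 higher and 4708 lower became 5788 and 13898 with median centring (medians 0.03 and -0.26). The cause of these shifts was not tested.

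Signs changed mostly in estimates near 0. For Fcgrt they were 0.0059 (median centring) and 0.020 (array weights) in APP-PS1_CTR against WT_CTR, 0.064 with slide blocked or within 1 slide in APP-PS1_UA against APP-PS1_CTR and 0.028 against WT_CTR, and 0.0089 (slide as a random block) and 0.093 (array row) in APP-PS1_WASHOUT against WT_WASHOUT, where Fcgr4 was -0.044 (quantile) and Fcgr3 -0.010 (value table). In APP-PS1_UA-WASHOUT against APP-PS1_WASHOUT, Fcgr3 was 0.027 (normexp), Fcgr1 -0.032 (median centring), -0.031 (value table), -0.030 (array weights) and -0.023 (replicate block), Fcer1g -0.026 (median centring) and -0.044 (array weights), and Fcgr2b -0.088 (array row). With slide and row blocked, or slide 3 row 1 only, Fcgr1 was -0.14, Fcer1g -0.13, Fcgr2b -0.27, Fcrls -0.084 and Fcgrt -0.15. In APP-PS1_UA-WASHOUT against WT_WASHOUT, Fcgr4 was -0.61 (quantile), -0.16 (median centring), -0.15 (value table, adjusted p = 0.0371 in limma) and -0.34 (slide 3 row 1 only), Fcgr3 -0.048, -0.048 and -0.10 and Fcgrt -0.14, -0.018 and -0.16 in the last 3 of these. For the change of the genotype difference, Fcer1g was -0.012 and Fcgrt -0.24 (median centring), Fcgrt -0.041 (value table and replicate block) and -0.024 (array weights), and Fcgr2b 0.31 (array row). Without single arrays, Fcgrt ranged from -0.18 to 0.11 in APP-PS1_CTR against WT_CTR, -0.29 to 0.00028 in APP-PS1_UA against APP-PS1_CTR, -0.11 to 0.11 and -0.0047 to 0.30 in the washout comparisons with WT_WASHOUT and with UA, -0.0083 to 0.30 in APP-PS1_UA-WASHOUT against WT_WASHOUT and -0.11 to 0.17 in the change of the genotype difference. Fcer1g ranged from -0.24 to 0.032 in APP-PS1_UA against APP-PS1_CTR. After washout with UA, Fcgr1 ranged from -0.14 to 0.16, Fcgr3 from -0.090 to 0.077 and Fcer1g from -0.18 to 0.18, and Fcgr4 from -0.027 to 0.28 against WT_WASHOUT. Fcgr4 was not well above background on 2 arrays, so its small differences are limited by signal.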
